A study of Mus musculus with 4 samples.

Results

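The enzymes examined here make serine from a glycolytic intermediate and pass its carbon into the folate cycle. They are the products of 9 genes, *Phgdh*, *Psat1* and *Psph* for serine synthesis and *Shmt1*, *Shmt2*, *Mthfd1*, *Mthfd1l*, *Mthfd2* and *Aldh1l2* for the handling of folate-bound carbon. The genes were taken by symbol, and all 9 were found among the 24369 genes listed. RNA-seq was performed on GFP+ CD4 T cells that carried either the empty vector (EV RV) or a retrovirus encoding Tox (Tox RV), with 2 libraries per group, named EV1 and EV2 (EV RV) and Tox1 and Tox2 (Tox RV) by replicate number. Naïve CD4 T cells from spleens of WT C57BL/6 mice were activated with anti-CD3, anti-CD28 and recombinant human IL-2, transduced on day 2, and sorted on day 5 after a 5 h restimulation through CD3. For this restimulation the paper's methods name anti-CD3 without anti-CD28, while its results name both. The age of these mice is not given in the sources used here, and the labels name a human anti-CD28 reagent where the methods name human IL-2. Both groups went through the same activation, spin infection and sort, and both vectors carry GFP, so that the intended difference is the Tox insert. Tox came from an MSCV retroviral vector, and each group represents 2 mice. The labels do not tie a library to a mouse, so that p-values measure the spread between these libraries.

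Serine is built from 3-phosphoglycerate by an oxidation (PHGDH), a transamination (PSAT1) and a dephosphorylation (PSPH). SHMT2 in mitochondria and SHMT1 in the cytosol then move a carbon from serine to tetrahydrofolate and leave glycine. In mitochondria MTHFD2 and MTHFD1L carry that carbon on to formate, which MTHFD1 in the cytosol puts back on folate for the synthesis of purines and thymidylate, while ALDH1L2 burns it to CO2. Activated T cells are known to raise this pathway as they begin to divide, and the transcription factors ATF4 and MYC are known to drive many of its genes.

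Before the results, one feature of the libraries needs to be given. EV1 was set apart from the rest, at -53.8 on the first principal component (58% of the variance) against 5.7 to 25.8 for the others, and *Rn45s*, the precursor of ribosomal RNA, made up 24.7% of its counts against 7.14% to 11.97% elsewhere. Total depth ran from 46989997 to 74548723 expected counts. *Tox* was at 11.7 and 5.73 CPM (counts scaled by TMM to a common library size) in EV1 and EV2 and at 121 and 99.9 CPM in Tox1 and Tox2, on the side of the labels in each. Even this log2 fold change of 3.68 (standard error 0.38) had an adjusted p of 0.490 in edgeR, the main test here, and 1.58e-20 in DESeq2, so that a missed edgeR threshold does not show that levels were alike. The 6 CD4 T cell markers summed to between 1274 and 1888 TPM, the 2 CD8 markers to between 3.32 and 4.98 TPM, and the B cell and myeloid lists stayed at or below 2.51 TPM. The NK cell list, *Eomes* included, summed to between 37.5 and 91.1 TPM, and its values by library are given below. *Ncr1* of that list and the B cell genes *Ms4a1* and *Pax5* had no count in any library.

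To show what kind of promoters these genes have, the 150 bases before the transcription start are given for 5 members that the results turn on, namely *Phgdh* and *Psat1* at the head of serine synthesis, the paired *Shmt1* and *Shmt2*, and *Mthfd2*. The *Psat1* start is the outer of its 2 RefSeq starts, and the *Mthfd2* start lies inside the annotated span of the gene. Sequences are from RefSeq on GRCm38.p6, the assembly of mm10, and all 5 genes lie on the minus strand, so that each is the reverse complement of the genome read 5′ to 3′. Capitals mark a CCAAT box or a GGGCGG box on either strand.
*Phgdh*, chr3:98339970-98340119: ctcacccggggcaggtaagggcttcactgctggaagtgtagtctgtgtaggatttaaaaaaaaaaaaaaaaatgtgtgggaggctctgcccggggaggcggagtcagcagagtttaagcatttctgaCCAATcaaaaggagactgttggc
*Psat1*, chr19:15925060-15925209: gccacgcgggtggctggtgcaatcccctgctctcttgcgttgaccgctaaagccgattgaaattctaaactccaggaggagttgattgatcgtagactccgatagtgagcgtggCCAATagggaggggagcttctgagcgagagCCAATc
*Shmt1*, chr11:60811266-60811415: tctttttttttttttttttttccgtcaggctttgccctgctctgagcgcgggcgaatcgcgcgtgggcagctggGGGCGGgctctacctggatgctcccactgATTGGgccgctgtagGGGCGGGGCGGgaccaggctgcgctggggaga
*Shmt2*, chr10:127522445-127522594: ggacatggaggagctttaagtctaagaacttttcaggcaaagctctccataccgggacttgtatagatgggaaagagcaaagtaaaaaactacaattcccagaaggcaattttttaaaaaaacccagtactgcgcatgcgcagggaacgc
*Mthfd2*, chr6:83317605-83317754: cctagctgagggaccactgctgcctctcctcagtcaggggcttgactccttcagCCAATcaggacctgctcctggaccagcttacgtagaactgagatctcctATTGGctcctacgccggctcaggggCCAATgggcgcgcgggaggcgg
The *Shmt1* and *Mthfd2* windows were 62.7% G or C and the *Shmt2* window 43.3%, and the *Shmt2* window holds neither box. RefSeq promoters were matched for 8 of the 9 members, in all 9 promoters because *Psat1* has 2. Over the 250 bases before the start, 6 of these 9 promoters held a CCAAT box, against 33.8% of 32851 promoters of the same length. They belong to *Mthfd1*, *Mthfd2*, *Phgdh*, *Psat1*, *Psph* and *Shmt1*. A GGGCGG box was in 5 of 9, against 32.7%, that of *Psat1* being before its inner start, which is not printed here. The letters TGATGNAA, a core of elements bound by ATF4 with C/EBP partners, and CACGTG, the E box that MYC and MAX can bind, were searched on both strands. They were in 0 of the 9 member promoters, against 3.45% and 6.02% of all promoters. The motifs were searched separately, so that matches may share bases, as 2 of the GGGCGG matches before *Shmt1* do. The CCAAT and GGGCGG boxes were named after their values were seen, so that their counts cannot test for an excess over all promoters. The matches describe the letters of the windows alone.

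In both groups 8 of these transcripts were well expressed. By mean TPM (a share of all transcripts that allows for length) *Phgdh* came first at 326 TPM, ahead of 97.8% of the 14143 genes with enough counts to be tested, followed by *Psat1*, *Shmt2*, *Mthfd2*, *Mthfd1l*, *Mthfd1*, *Shmt1* and *Psph*, the last of these at 31.7 TPM and ahead of 74.2% of genes. *Aldh1l2* was the exception at 0.788 TPM, ahead of only 16.2% of genes. Between neighbours in this order, the ranges over the 4 libraries were apart for *Phgdh* over *Psat1*, *Shmt2* over *Mthfd2*, *Mthfd1l* over *Mthfd1* and *Psph* over *Aldh1l2*, and overlapped for the other 4 pairs. *Psat1* was above *Shmt2*, and *Mthfd2* above *Mthfd1l*, in 3 of 4 libraries each, so that these neighbours cannot be ordered beyond their spread. The 9 transcripts together made up 752 and 1115 TPM in EV1 and EV2 and 868 and 963 TPM in Tox1 and Tox2.

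**Figure D1:**
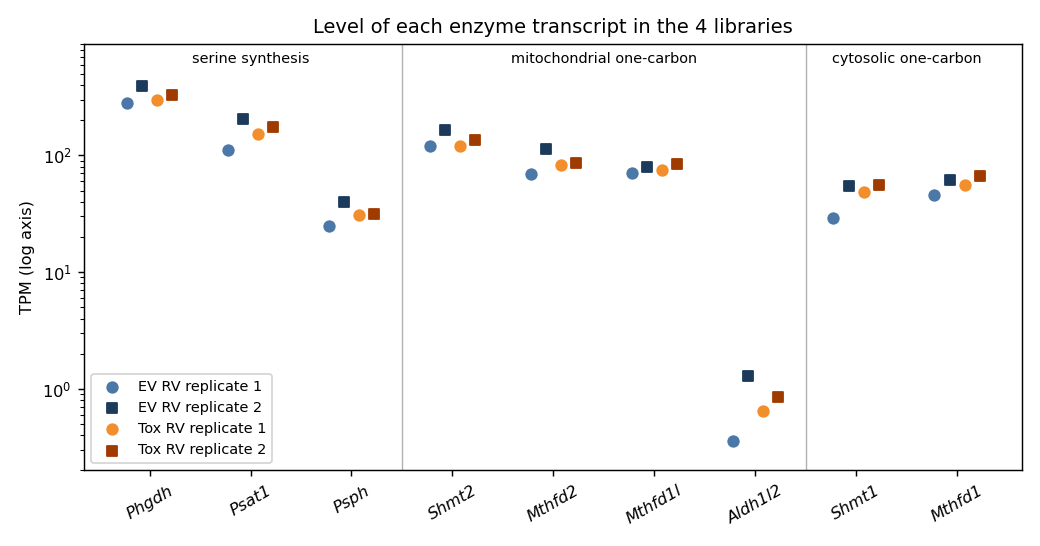
TPM (log axis) of each of the 9 enzyme transcripts, grouped by role, with 1 point per library (circles replicate 1, squares replicate 2, blue EV RV, orange and brown Tox RV). EV1 is the lowest point for all 9 genes, *Phgdh* is the highest transcript and *Aldh1l2* lies near 1 TPM.

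The serine synthesis genes did not differ between Tox RV and EV RV cells beyond the spread of 2 libraries per group. *Phgdh*, whose enzyme commits carbon to the pathway (chromosome 3, 98313171 to 98339969), was at 281 and 396 TPM in EV1 and EV2 and at 301 and 326 TPM in Tox1 and Tox2. Both Tox RV values lay between the EV RV values, and the group levels (EV RV, then Tox RV) were 339 ± 80.9 and 314 ± 17.8 TPM (SD, n = 2 each). Its log2 fold change, Tox RV against EV RV on the scale of TMM-scaled counts, was -0.03 with a standard error of 0.23 (edgeR adjusted p = 0.983), with a 95% interval from 0.658-fold to 1.45-fold. *Psat1*, the aminotransferase (chromosome 19, 15905123 to 15925059), was at 111 and 206 TPM in the EV RV libraries and at 153 and 175 TPM in the Tox RV libraries, again with both Tox RV values in between. Its log2 fold change came to 0.12 with a standard error of 0.33 (edgeR adjusted p = 0.9495). *Psph*, the phosphatase that releases serine (chromosome 5, 129765558 to 129787443), was at 24.7 and 39.7 TPM in EV RV and 31.1 and 31.5 TPM in Tox RV cells, which gave a log2 fold change of 0.03 with a standard error of 0.28 (edgeR adjusted p = 0.988). *Psph* overlaps *Cct6a*, which was at 283 to 459 CPM, and since use of strand in counting is not stated, reads of this overlap could fall to either gene; *Shmt2* overlaps *Ndufa4l2*, which was at only 0.284 to 0.512 CPM.

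The mitochondrial folate enzymes likewise did not pass the test. *Shmt2*, which moves the carbon of serine to folate (chromosome 10, 127517123 to 127522444), was at 120 and 163 TPM in EV RV and 120 and 136 TPM in Tox RV cells, where the lowest values of both groups nearly coincided. *Mthfd2*, the dehydrogenase and cyclohydrolase that is low in most resting adult cells (chromosome 6, 83305704 to 83326011), was at 69.3 and 113 TPM in EV RV and 82.2 and 85.6 TPM in Tox RV cells. *Mthfd1l*, which releases formate (chromosome 10, 3972892 to 4167081), varied least, at 71.0 and 78.8 TPM in EV RV and 75.7 and 83.6 TPM in Tox RV cells. Differences between the groups (log2) were -0.07 for *Shmt2*, -0.05 for *Mthfd2* and 0.17 for *Mthfd1l*, with edgeR adjusted p-values of 0.961, 0.981 and 0.897. The 95% interval was narrowest for *Mthfd1l*, from 0.834-fold to 1.52-fold. *Aldh1l2* (chromosome 10, 83487447 to 83534146) was at 0.36 and 1.29 TPM in EV RV and 0.65 and 0.85 TPM in Tox RV cells, from 54, 364, 156 and 169 expected counts. The 95% interval of *Aldh1l2* ran from 0.333-fold to 2.61-fold, which includes no change. Its counting error was at most 13.7%, while its CPM was 1.28 in EV1 and 4.78 in EV2. The other 8 genes had at least 876 counts in each library.

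The cytosolic enzymes showed the most positive differences, without passing the test. *Shmt1* (chromosome 11, 60788897 to 60811265) was at 29.0 and 54.8 TPM in EV1 and EV2 and at 48.4 and 56.2 TPM in Tox1 and Tox2. The Tox RV values straddled the upper EV RV value, and the log2 fold change of *Shmt1* was 0.39 with a standard error of 0.34 (edgeR adjusted p = 0.897). Without EV1 it was -0.03. *Mthfd1*, which joins formate to folate and converts the product further (chromosome 12, 76254406 to 76319820), was at 46.1 and 62.1 TPM in EV RV and 55.8 and 67.1 TPM in Tox RV cells. For *Mthfd1* the difference on the log2 scale was 0.26 with a standard error of 0.23 (edgeR adjusted p = 0.897). All 9 genes are annotated as protein coding.

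Across the pathway, 0 of the 9 members had an edgeR adjusted p below 0.05, where 0.0% of the 14143 genes did, and 0 of 9 had an unadjusted p-value below 0.05, against 3.62% of genes. DESeq2, the tool of the study's methods, also called 0 of 9 at this threshold (0.184% of genes), and 0 of 9 had an unadjusted p-value below 0.05 in it, against 4.31% of genes. The Tox RV libraries did not lie wholly above or wholly below the EV RV libraries for any member, while they lay above for 18.6% of all genes tested and below for 17.4%. Of the members 5 had a positive and 4 a negative value, and the median was 0.03 on the log2 scale beside 0.00 over all genes. The 95% interval stayed within a 2-fold change either way for 7 of 9, the exceptions being *Shmt1*, with an upper limit of 2.33-fold, and *Aldh1l2*. The share of all genes with such an interval was not computed, so that this count does not set the members apart. In such bulk samples, fewer cells that express a gene and less of its RNA per cell cannot be told apart.

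**Figure D2:**
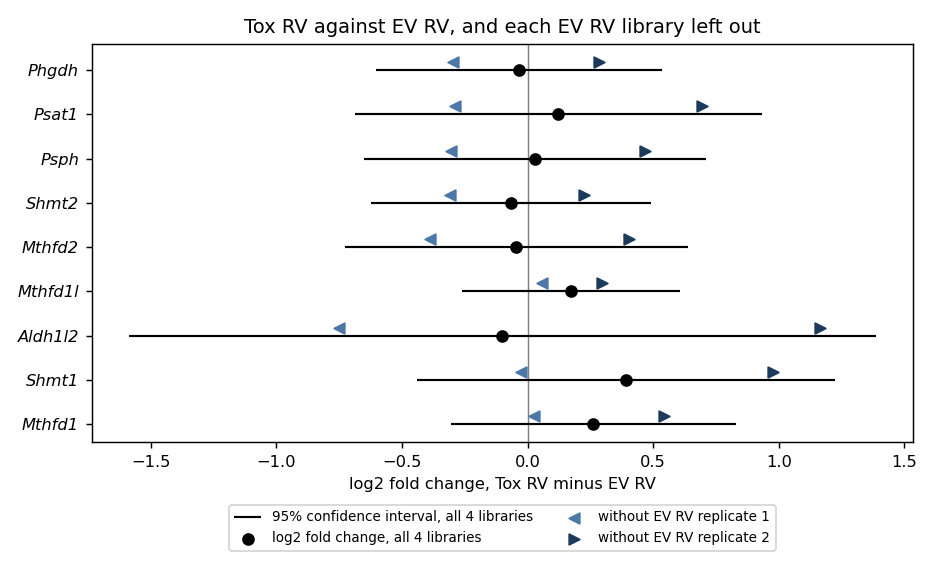
Log2 fold change of each enzyme transcript, Tox RV minus EV RV, from edgeR with all 4 libraries (black points, with lines for the 95% confidence interval) and with either EV RV library left out (triangles). All 9 intervals include 0, and leaving out EV2 puts all 9 values above 0 while leaving out EV1 puts 7 of 9 below 0.

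The sign of these small differences depended on which EV RV library was included. Without EV1 the median of the members was -0.30, beside 0.003 over all genes. In that fit 7 of 9 had a negative value, with *Mthfd2* at -0.39 and *Phgdh* at -0.30. Without EV2 the median was 0.47, beside 0.019 over all genes, and 9 of 9 had a positive value. In that fit *Shmt1*, at a log2 fold change of 0.98, was the member that passed the threshold (edgeR adjusted p = 0.0453), in a fit where the lone EV RV library is assumed to vary as the Tox RV libraries do and where 600 genes passed in all. *Mthfd1* and *Mthfd1l* kept a positive value with each library left out, from 0.02 to 0.54 and from 0.06 to 0.30.

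What the 9 genes did share was the way they differed between the replicates of a group. EV1 was the lowest of the 4 libraries for 9 of 9 members, an arrangement found in 37.0% of all genes, and EV2 was also the highest for 6 of 9, an arrangement with both Tox RV libraries in between that 11.8% of all genes had. The other 3, *Shmt1*, *Mthfd1* and *Mthfd1l*, were highest in Tox2. For 9 of 9 members the CPM of EV2 was above that of EV1 (49.7% of all genes). On log2 CPM with a prior count of 2 added, the rise was between 1.17-fold (*Mthfd1l*) and 3.67-fold (*Aldh1l2*). *Shmt1* was at 1.99-fold and *Psat1* at 1.96-fold. The median log2 difference between these libraries was 0.76 for the members and -0.00 over all genes. Among the lists examined below, this median was 0.64 for ATF4 and MYC, 0.41 for purine synthesis and 0.37 for the methionine cycle. It was 0.22 for serine and glycine handling and 0.09 for folate cycle partners. A higher level in EV2 was thus not particular to the members. The signed difference of *Psat1* exceeded that of 95.8% of all genes, that of *Shmt1* exceeded 96.1% and that of *Mthfd1l* 67.1%. In Tox RV cells the 9 members also lay higher in replicate 2 (49.5% of all genes did), but by a median of only 0.18 on the log2 scale. For 9 of 9 members the gap between the EV RV replicates was larger than the difference between the groups, as it was for 71.1% of all genes.

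**Figure D3:**
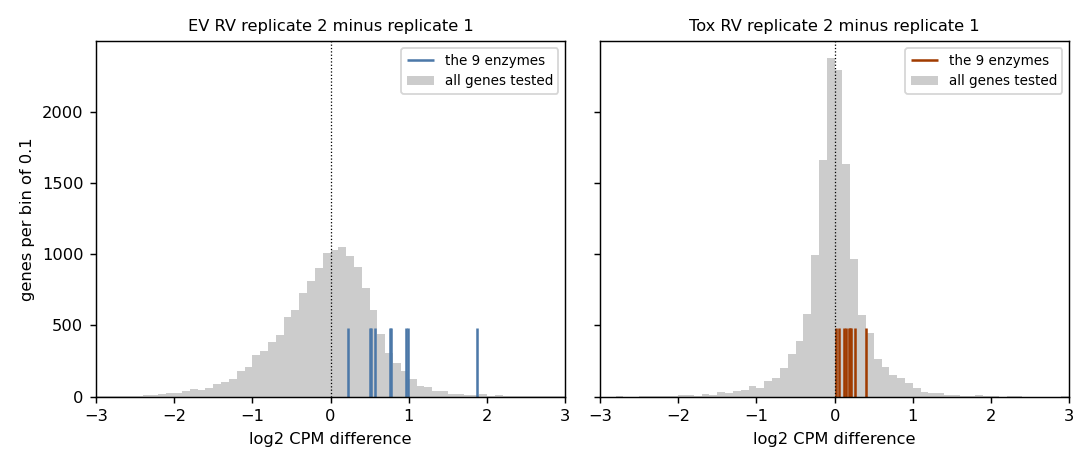
Difference in log2 CPM between the replicates of EV RV (left) and Tox RV (right), with grey bars for the number of genes tested in each bin of 0.1 and coloured lines for the 9 enzymes. All 9 lines lie to the right of 0 in both panels, between 0.23 and 1.87 for EV RV and between 0.02 and 0.40 for Tox RV; 43 genes for EV RV and 13 for Tox RV lie outside the axis.

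Several values moved with the low level of EV1, and their part in it was not tested. The share of *Rn45s* was highest in this library (24.7%). Its expected counts were the fewest of the 4 libraries, at 46989997, with Tox2 next at 49012254. In Tox2 the CPM of 9 of 9 members lay above that in Tox1. The CD4 T cell markers summed to 1888 TPM in EV1 and to 1274, 1758 and 1492 TPM in EV2 and Tox1 and Tox2. Among these markers *Cd3e* was at 285, 88.7, 109 and 85.7 TPM in the same order, and *Cd5* and *Cd28* were also highest in EV1. In contrast, *Cd3d*, *Cd3g* and *Cd4* were highest in Tox1, with *Cd4* at 218, 174, 250 and 229 TPM. The NK cell list, *Eomes* included, summed to 91.1, 58.1, 62.0 and 37.5 TPM in the same order, with *Ncr1* at 0 in each. Within this list *Eomes* was at 37.3, 48.3, 31.0 and 30.7 TPM, whereas the NK receptor genes were higher in replicate 1 of both groups. *Klrd1* was at 33.2 and 4.21 TPM in EV1 and EV2 and at 21.9 and 4.26 TPM in Tox1 and Tox2, and *Klrk1* at 19.9, 5.46, 8.65 and 2.44 TPM. The list's median log2 difference, replicate 2 minus replicate 1, was -2.08 in the empty-vector group and -1.75 with Tox, so that the receptor genes moved opposite to the members in both groups, and their part in the members' replicate difference was not tested. On TMM-scaled CPM *Phgdh* was at 290 and 429, *Psat1* at 135 and 263 and *Mthfd2* at 79.6 and 136 in EV1 and EV2.

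Ratios between members within a library do not depend on the scaling of libraries. The ratio of *Shmt2* to *Shmt1* TPM, the mitochondrial against the cytosolic form, was 4.13 and 2.98 in EV1 and EV2 and 2.48 and 2.42 in Tox1 and Tox2. Both Tox RV values lay below both EV RV values, and the mean log2 ratio differed by -0.52, close to the gap of 0.47 between the EV RV replicates. The ratio of *Mthfd2* to *Mthfd1* TPM was 1.5035 in EV1, 1.82 in EV2, 1.47 in Tox1 and 1.28 in Tox2, also with both Tox RV values below, though EV1 (0.59 as log2) and Tox1 (0.56) nearly met. The ratio of *Mthfd1l* to *Mthfd1* TPM (1.54, 1.27, 1.36 and 1.24 in the same order) and that of *Psat1* to *Phgdh* TPM (0.393, 0.521, 0.509 and 0.537) overlapped between the groups. Groups that do not overlap were thus found for 2 of 4 ratios, beside 34.7% of all pairs of genes with a mean of at least 20 CPM. The members' ratios share libraries and genes, and 2 libraries against 2 cannot reach a two-sided exact permutation p-value of 0.05, so that no test is given.

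**Figure D4:**
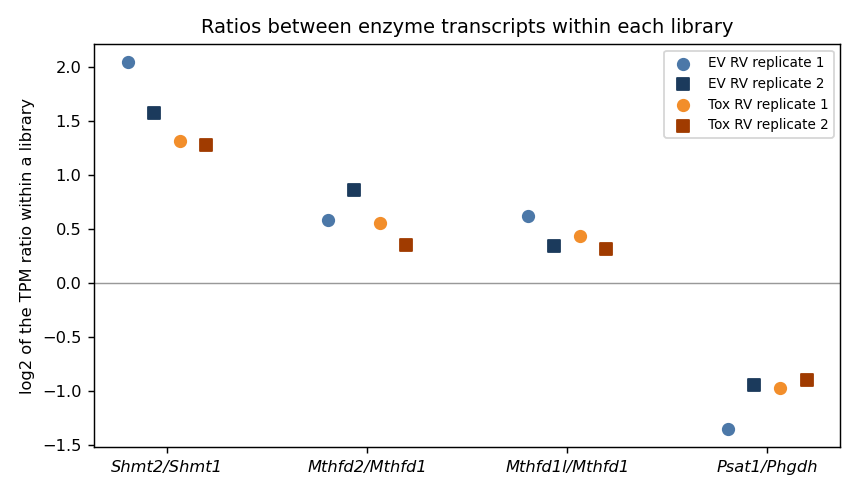
Log2 of the TPM ratio of 4 pairs of enzyme transcripts within each library (circles replicate 1, squares replicate 2, blue EV RV, orange and brown Tox RV). For *Shmt2*/*Shmt1* the Tox RV points (1.31 and 1.28) lie below the EV RV points (2.05 and 1.58), and the *Mthfd1l*/*Mthfd1* and *Psat1*/*Phgdh* ratios overlap between groups.

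Genes around the pathway were then examined by lists. None of the 72 list genes tested passed an adjusted p of 0.05 in edgeR or in DESeq2, and 5 had an unadjusted p-value below 0.05 in edgeR (3.62% of all genes), all of them with negative values. Over all genes at that threshold, 360 values were likewise negative and 152 positive. Without EV2, 2 genes of serine and glycine handling (*Gcsh* and *Sfxn3*) and 2 of the ATF4 and MYC list, *Cebpb* among them, passed the adjusted threshold in edgeR, in the fit where 600 genes passed. These lists, too, share the 4 libraries with the members. Among 14 folate cycle partners, 7 were higher and 7 lower (median log2 fold change 0.04). The most abundant, *Tyms*, which makes thymidylate, was at 69.2 and 100.2 TPM in EV RV and 71.0 and 81.8 TPM in Tox RV cells. The largest differences in this list were those of the weakly expressed folate genes *Slc46a1* (log2 fold change 0.60) and *Ftcd* (-0.545), with means of 0.665 and 0.570 TPM. *Ftcd* was at -0.08 without EV1 and -0.92 without EV2, and *Slc46a1* at 0.34 without EV2. *Aldh1l1* and *Mthfd2l*, paralogs of *Aldh1l2* and *Mthfd2*, had at most 126 expected counts in any library. Among 15 tested of 17 genes for serine and glycine handling, 8 were higher and 7 lower (median 0.05).

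*Slc6a9*, a glycine transporter of the plasma membrane, was the gene of that list with an unadjusted p-value below 0.05 in edgeR, whereas in DESeq2 *Sfxn3* (unadjusted p = 0.0304) was below it as well. *Slc6a9* was at 8.47 and 9.97 TPM in EV RV and 5.80 and 4.68 TPM in Tox RV cells, with no overlap between the groups. Its log2 fold change was -0.74 with a standard error of 0.22 (adjusted p = 0.897 in edgeR and 0.610 in DESeq2). The serine and glutamine carrier *Slc1a5* was the most abundant of the list, at 224 and 218 TPM in EV RV and 232 and 200.2 TPM in Tox RV cells. *Gcsh*, a protein of the glycine cleavage system, had the largest positive value (0.41), which was 0.09 without EV1 and 0.81 without EV2 (edgeR adjusted p = 0.0484). *Sfxn3*, a mitochondrial carrier of the sideroflexin family, had the largest negative value (-1.18). The *Sfxn3* value came from EV1, at 20.7 TPM against 4.43 to 5.45 TPM in the other libraries, and turned to 0.25 without that library and to -1.88 without EV2 (edgeR adjusted p = 0.0278).

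All 13 genes of purine synthesis, which builds its ring partly from folate-bound formyl groups, had small positive values. Of all genes tested, 7135 of 14143 had a positive value. The purine genes ranged from 0.02 (*Adss*) to 0.69 (*Adssl1*), with a median log2 fold change of 0.14. The most abundant, *Impdh2*, was at 226 and 293 TPM in EV RV and 259 and 276 TPM in Tox RV cells. This common sign did not hold in every fit. Without EV1, 3 of 13 were positive and 10 negative with a median of -0.05, and 11 of 13 were positive with scaling by library totals without *Rn45s* and 10 of 13 with limma on log2(TPM + 1). EV2 was above EV1 for 12 of 13 (49.7% of all genes). Among 11 tested of 14 genes of the methionine cycle and transsulfuration, 6 were higher and 5 lower (median 0.00), with *Mat2a*, which makes S-adenosylmethionine, the most abundant at 189 and 241 TPM in EV RV and 231 and 199.8 TPM in Tox RV cells. *Mtap* (0.20) and *Cth* (-0.51) marked the ends of that list, and without EV1 *Mtap* was at 0.0014.

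The list of ATF4, MYC, their partners and ATF4 targets had 6 of 19 genes with a positive and 13 with a negative value, at a median of -0.19. Without EV2 this turned to 11 positive and 8 negative, at a median of 0.23, and without EV1 it was 2 and 17, at a median of -0.36. *Atf4* itself was at 243 and 354 TPM in EV RV and 276 and 260.4 TPM in Tox RV cells, both Tox RV values between the EV RV values (log2 fold change -0.07). *Myc* was at 168 and 117 TPM in EV RV and 100.2 and 80.3 TPM in Tox RV cells, without overlap, at a log2 fold change of -0.57 with a standard error of 0.23 (edgeR adjusted p = 0.897). *Eif4ebp1*, an inhibitor of translation initiation and an ATF4 target, was at 70.1 and 64.8 TPM in EV RV and 42.9 and 42.2 TPM in Tox RV cells, or -0.58 on the log2 scale (standard error 0.16). *Chac1*, which degrades glutathione, and the weakly expressed *Mycn* had log2 fold changes of -0.60 and -1.60. These 4 genes had unadjusted p-values below 0.05 and edgeR adjusted p-values of 0.897, and the Tox RV libraries lay wholly below the EV RV libraries for 6 of 19 genes of the list (17.4% of all genes) and wholly above for 1 (18.6%). Without EV1 *Myc* was at -0.33, and *Mycn* ranged from -2.46 to -0.99 with 1 library left out. *Cebpb* had the largest positive value of the list (0.41), which was -0.05 without EV1 and 1.10 without EV2 (edgeR adjusted p = 0.0384). *Asns*, an ATF4 target that makes asparagine, was at 64.8 and 127 CPM in EV RV and 97.3 and 98.3 CPM in Tox RV cells, again with both Tox RV values between the EV RV values.

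**Figure D5:**
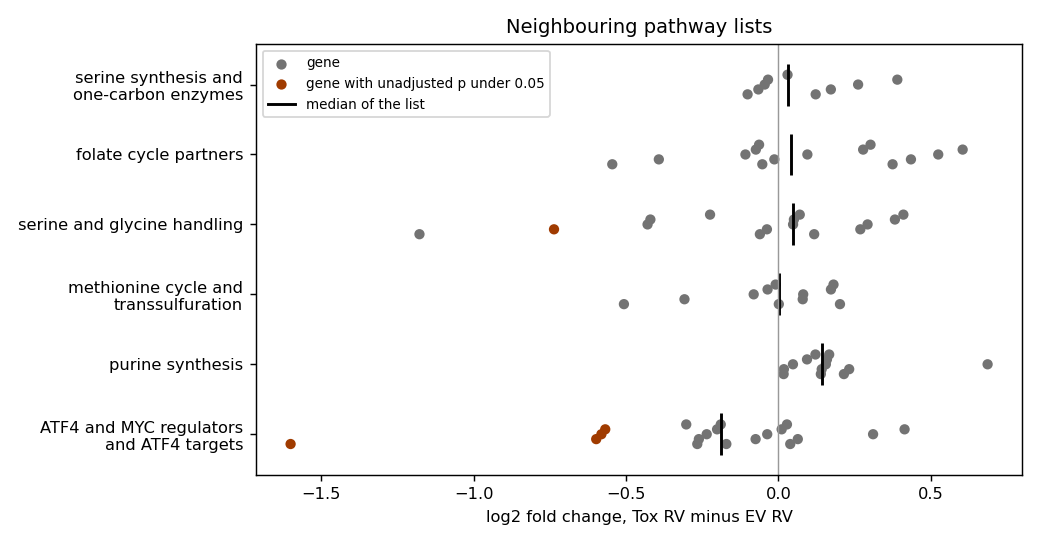
Log2 fold change (Tox RV minus EV RV) of each gene tested in 6 lists, with grey points for genes, brown points for genes with an unadjusted p-value below 0.05 and a black bar for the median of each list. The 9 enzymes lie between -0.10 and 0.39, the 13 purine genes are all to the right of 0 and the 4 brown points of the ATF4 and MYC list are to the left.

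The mean profile of the members over the 4 libraries, as deviations of log2 CPM from each gene's mean, was -0.47 and 0.33 in EV1 and EV2 and -0.01 and 0.16 in Tox1 and Tox2. *Aldh1l2* is included in this mean at only 1.28 to 4.78 CPM, below the minimum set for the genes searched. Its gap between EV1 and EV2 was the largest of the members, at 1.87 on the log2 scale. Of 6809 other genes with a mean of at least 20 CPM, those nearest to the mean profile by Euclidean distance over the 4 libraries were *Lsm8* (0.0273), *Mpc1* (0.0360), *Ran* (0.0372), *Capza2* (0.0430) and *Rexo2* (0.0432). *Ran*, the most abundant of these, was at 404 and 692 CPM in EV RV and 565 and 638 CPM in Tox RV cells. With 4 points per gene such likeness is a description of these libraries.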

How the data were processed

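RNA-seq of 4 libraries (2 EV RV, 2 Tox RV) was grouped from the sample titles. The authors checked reads with fastqc, aligned them with bowtie1 to mm10 transcripts and quantified genes with RSEM, and the submitters' processing notes also list Bowtie2. The deposited expected counts are RSEM's estimated fragments per gene, not normalized. The deposited TPM are RSEM's length-adjusted shares of transcripts and include *Rn45s* in the total. A further deposited table, named as TPM, does not sum to the total that TPM must have and was not used.

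Expected counts were rounded, and edgeR 4.0.16 was run in R 4.3.3 (filterByExpr with a minimum count of 10, TMM, glmQLFit and glmQLFTest, no block), which tested 14143 of 24369 genes with Benjamini-Hochberg adjustment and a threshold of 0.05. The standard error came from the log2 fold change and the F statistic, and 95% intervals used the test's degrees of freedom. Spread is the SD of 2 libraries. DESeq2 1.42.0, limma 3.58.1 on log2(TPM + 1) or log2(TPM + 0.1), other scalings, no filter, a replicate block and leaving out each library were alternatives. Scripts were tested on simulated data. EV1, EV2, Tox1 and Tox2 held 46989997, 74548723, 61442264 and 49012254 expected counts, so that counting error is at most 3.38% for 8 members and up to 13.7% for *Aldh1l2*; it covers counting alone.

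The members and lists were chosen with earlier results of these data known. Named were all members, *Tox*, and of each list the genes with an unadjusted p-value below 0.05, the most abundant and those with the largest positive and negative log2 fold changes; *Asns* was named after its values were seen, as were the CCAAT and GGGCGG motifs. Nearest genes were the 5 with the smallest distance. Coordinates and promoters are from RefSeq, GRCm38.p6.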

Additional observations from a re-analysis of the deposited data

How the results depend on the processing

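No member passed an adjusted p-value of 0.05 under DESeq2, median-of-ratios scaling, library totals with or without *Rn45s*, no low-count filter, the replicate block or limma. Leaving out 1 library gave 0 to 1 members past it, 2 genes past it in each of the lists of serine and glycine handling and of ATF4 and MYC at most (without EV2), and a median of the members from -0.30 to 0.47. Over all genes the count was 0 in the edgeR fit, 25 with DESeq2, 22 without the low-count filter, 16 with the replicate block and from 1 to 600 with 1 library left out, most without EV2. The labels do not say that a replicate number marks one mouse, and the deviations of the replicates from their group means correlated at 0.302 between the groups across genes. With the replicate block 7 of 9 members were positive, at a median of 0.15, and no member's call changed. *Shmt1* was at 0.47 there with a standard error of 0.22. The smallest unadjusted p-value of a member was 0.0522 in this edgeR fit, against 0.293 in the main edgeR fit. Scaling by library totals moved the median of all genes to 0.12, and there 8 of 9 members were positive.

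Values that changed sign included most members and, among values farther from 0, *Sfxn3*, *Cth*, *Cebpb* and *Shmt1*. By library totals *Phgdh* was at 0.0708, *Shmt2* at 0.0409, *Mthfd2* at 0.0532, *Tyms* at 0.0302 and *Atf4* at 0.0263, and by totals without *Rn45s* *Psph* was at -0.0053 and *Adss* at -0.0199. With the replicate block *Mthfd2* was at 0.0062 and *Aldh1l2* at 0.15. With limma on log2(TPM + 1) *Psph* was at -0.0031, *Slc1a5* at -0.0384 and *Adss* at -0.043, and on log2(TPM + 0.1) *Psph* was at -0.0021, *Aldh1l2* at 0.0781, *Slc1a5* at -0.0386 and *Adss* at -0.0433. With 1 library left out, sign changes left these ranges, *Psat1* from -0.2891 to 0.6922, *Psph* from -0.3053 to 0.4663, *Shmt1* from -0.0285 to 0.9769, *Sfxn3* from -1.8832 to 0.2549, *Mat2a* from -0.1209 to 0.3141, *Impdh2* from -0.0904 to 0.3663, *Adss* from -0.2344 to 0.3176, *Cebpb* from -0.0489 to 1.097, *Phgdh* from -0.2962 to 0.2821, *Shmt2* from -0.3104 to 0.2248, *Mthfd2* from -0.3885 to 0.402, *Aldh1l2* from -0.7506 to 1.1627, *Tyms* from -0.3531 to 0.2675, *Cth* from -1.2304 to 1.1064, *Atf4* from -0.3673 to 0.2883 and *Slc1a5* from -0.0688 to 0.1549. The cause was not tested.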
